A study of Mus musculus with 6 samples.

Results

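Retinoic acid is a signalling molecule of the developing face, and 10 genes that make it, break it down, carry it and sense it were followed here in the chromatin of the mouse whisker pad at embryonic day 12 (E12). They were the synthesis enzymes *Aldh1a2* and *Aldh1a3*, the breakdown enzymes *Cyp26a1*, *Cyp26b1* and *Cyp26c1*, the binding proteins *Crabp1* and *Crabp2*, and the receptors *Rara*, *Rarb* and *Rarg*. They were chosen by name from 21582 protein-coding genes of the GENCODE annotation of GRCm38 (mm10). The rule used no measured value, but earlier results of these data were known when the genes were chosen. For each gene, the peaks that overlapped the gene body or the 5 kb on either side were taken, together with peaks up to 100 kb away whose nearest protein-coding start site was that of the gene. The mark was H3K4me1, a single methyl group on lysine 4 of histone H3, which lies over enhancers in use and enhancers held in waiting.

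The mark was mapped by CUT&Tag, in which a transposase is brought to the antibody-bound histone and cuts out the DNA around it. Of 6 samples, 3 used the H3K4me1 antibody and 3 used IgG as a control. The IgG samples were not analysed here, and the values have no control beside them. All were fresh cells of a whole pad of wild-type embryos of the strain labelled B6/J2, so that mesenchyme, surface ectoderm, vessels and nerves are seen as a mixture, and no gene or treatment was varied. A larger number of cells that carry the mark cannot be told apart from more of the mark per cell. The 3 H3K4me1 samples are called replicates 1, 2 and 3 after the pad numbers of their titles. The source name of 4 samples, H3K4me1 replicates 2 and 3 included, is adult kidney, whereas each title names a whisker pad, and the titles were used. Of 10 facial mesenchyme markers, such as *Prrx1* and *Twist1*, 10 carried a peak in all 3 replicates, against 1 of 10 adult kidney markers (*Slc12a1*), 3 of 10 surface ectoderm, 3 of 10 endothelial and 0 of 10 erythroid markers. The kidney markers numbered 2, 2 and 1 in replicates 1, 2 and 3, so the 2 replicates with the kidney source name did not hold more of them than replicate 1. The labels do not say whether the pads came from different embryos, and the spread between replicates may be in part technical.

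Cells make retinoic acid from vitamin A in steps, the last of which is carried out by the ALDH1A dehydrogenases. The CYP26 enzymes oxidise it and so keep tissues, or sides of a tissue, free of it. CRABP proteins bind it in the cytoplasm and hand it to the CYP26 enzymes or to the nucleus. There the receptors, which pair with an RXR, sit on DNA at repeats of a short half-site and recruit corepressors without the ligand and coactivators with it. Several genes of the pathway, *Cyp26a1* and *Rarb* among them, are themselves textbook targets of the receptors, which makes the pathway limit its own signal.

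Because the receptors bind repeats of their half-site, the genome under the peaks was searched for them. A half-site was AGGTCA or AGTTCA or GGGTCA or GGTTCA, on either strand, and DR5 stands for a pair in the same orientation with 5 bases between them (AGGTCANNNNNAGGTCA is an instance), DR2 for a pair with 2 bases between them. The 4 DR5 matches that lay both under a peak and within 1 kb of a start site, and the DR2 match under the main *Crabp2* peak, are shown 5′ to 3′ on their own strand with the half-sites in capitals. The sequence is from the RefSeq copy of GRCm38.
Cyp26a1 DR5, chr19:37697770-37697798, minus strand: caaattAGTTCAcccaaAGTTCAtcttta
Rara DR5, chr11:98960002-98960030, plus strand: caggcgAGTTCAgcaagAGTTCAgccgaa
Rarb DR5, chr14:16575507-16575535, minus strand: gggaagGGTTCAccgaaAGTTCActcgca
Rarg DR5, chr15:102250811-102250839, minus strand: ggtcagGGTTCAaagtgAGGTCAcggtat
Crabp2 DR2, chr3:87947519-87947544, plus strand: gtccccAGTTCAccAGGTCAgggctg
The *Cyp26a1* and *Rara* pairs use the same half-site in both places, whereas the *Rarb* and *Rarg* pairs share their first half-site and differ in the second. *Rarb* and *Rarg* carry the match on the strand of the gene, as does *Rara*, and *Cyp26a1* carries it on the other strand.

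A peak over the gene body or its 5 kb flanks was present for 9, 9 and 7 of the 10 genes in replicates 1, 2 and 3. Among all protein-coding genes the shares were 24.9%, 22.7% and 19.6%. In all 3 replicates, 7 of the 10 genes carried one, beside 15.5% of all genes. They were *Aldh1a3*, *Cyp26b1*, *Crabp1*, *Crabp2*, *Rara*, *Rarb* and *Rarg*, that is 1 of 2 synthesis enzymes, 1 of 3 breakdown enzymes, 2 of 2 binding proteins and 3 of 3 receptors. *Cyp26a1* and *Cyp26c1* carried one in replicates 1 and 2 only, and *Aldh1a2* in none. Length matters for such a count, since a long gene has more room for a peak. The share in all 3 replicates was 8.33% of genes under 20 kb, 16.6% of genes of 20 to 100 kb and 46.0% of genes of 100 kb and over, and *Rarb*, at 388 kb, was the only one of the 10 genes in the longest class. The peaks of the 3 replicates merged into 35 regions at these genes, of which 22 held a peak in all 3 replicates. That is 62.9%, beside 46.3% of all 19251 merged regions.

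How much of each gene was under the mark was measured as coverage, the percent of bases in the body and 5 kb flanks that lay within a peak. The mean over all protein-coding genes was 4.06%, 4.16% and 2.71% in replicates 1, 2 and 3, and the mean over the 10 genes was 35.6%, 42.3% and 26.8%. The order of the mean coverage was *Rara*, *Crabp2*, *Rarg*, *Cyp26b1*, *Crabp1*, *Cyp26c1*, *Cyp26a1*, *Aldh1a3*, *Rarb* and *Aldh1a2*. Neighbours in this order were compared within each replicate. The gene with the higher mean was higher in 3 of 3 replicates for *Crabp2* over *Rarg*, by 15.6 ± 3.29 percentage points (SD, n = 3), *Crabp1* over *Cyp26c1*, by 14.3 ± 9.28, *Aldh1a3* over *Rarb*, by 5.60 ± 1.48, and *Rarb* over *Aldh1a2*, by 6.98 ± 1.23. The other 5 pairs of neighbours had no common sign, and their mean differences were within their spread, as between *Rara* and *Crabp2*, at 2.51 ± 6.0.

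**Figure D1:**
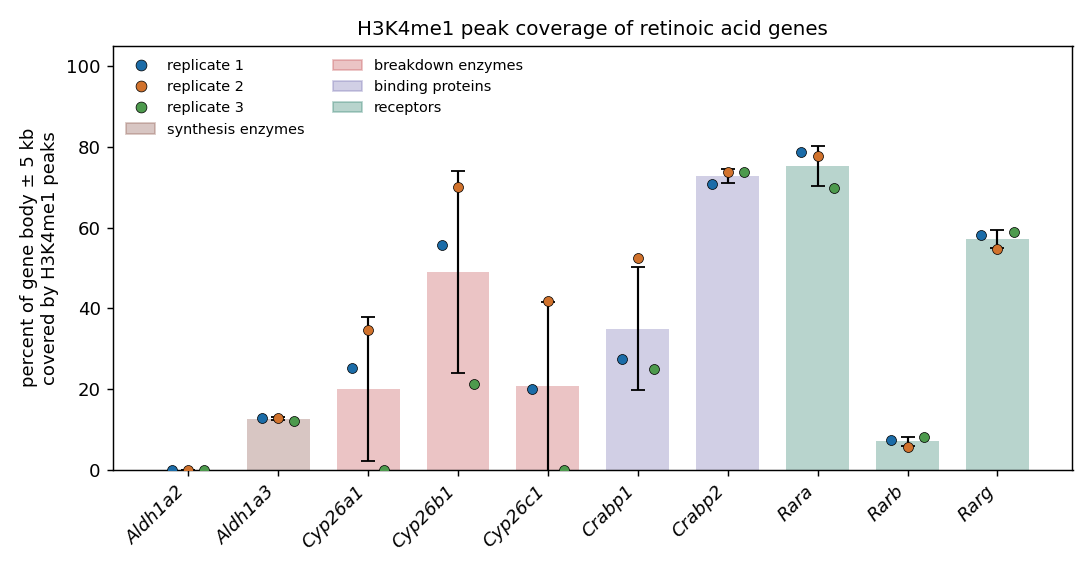
The percent of each gene body with 5 kb on either side that lay within H3K4me1 peaks, for the 10 genes coloured by role. Points are replicates, bars means and whiskers 1 SD (n = 3). *Rara* and *Crabp2* stand highest, with means of 75.3% and 72.8%, *Aldh1a2* is at 0 in every replicate, and the points of the 3 breakdown enzymes lie lowest in replicate 3.

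**Figure D2:**
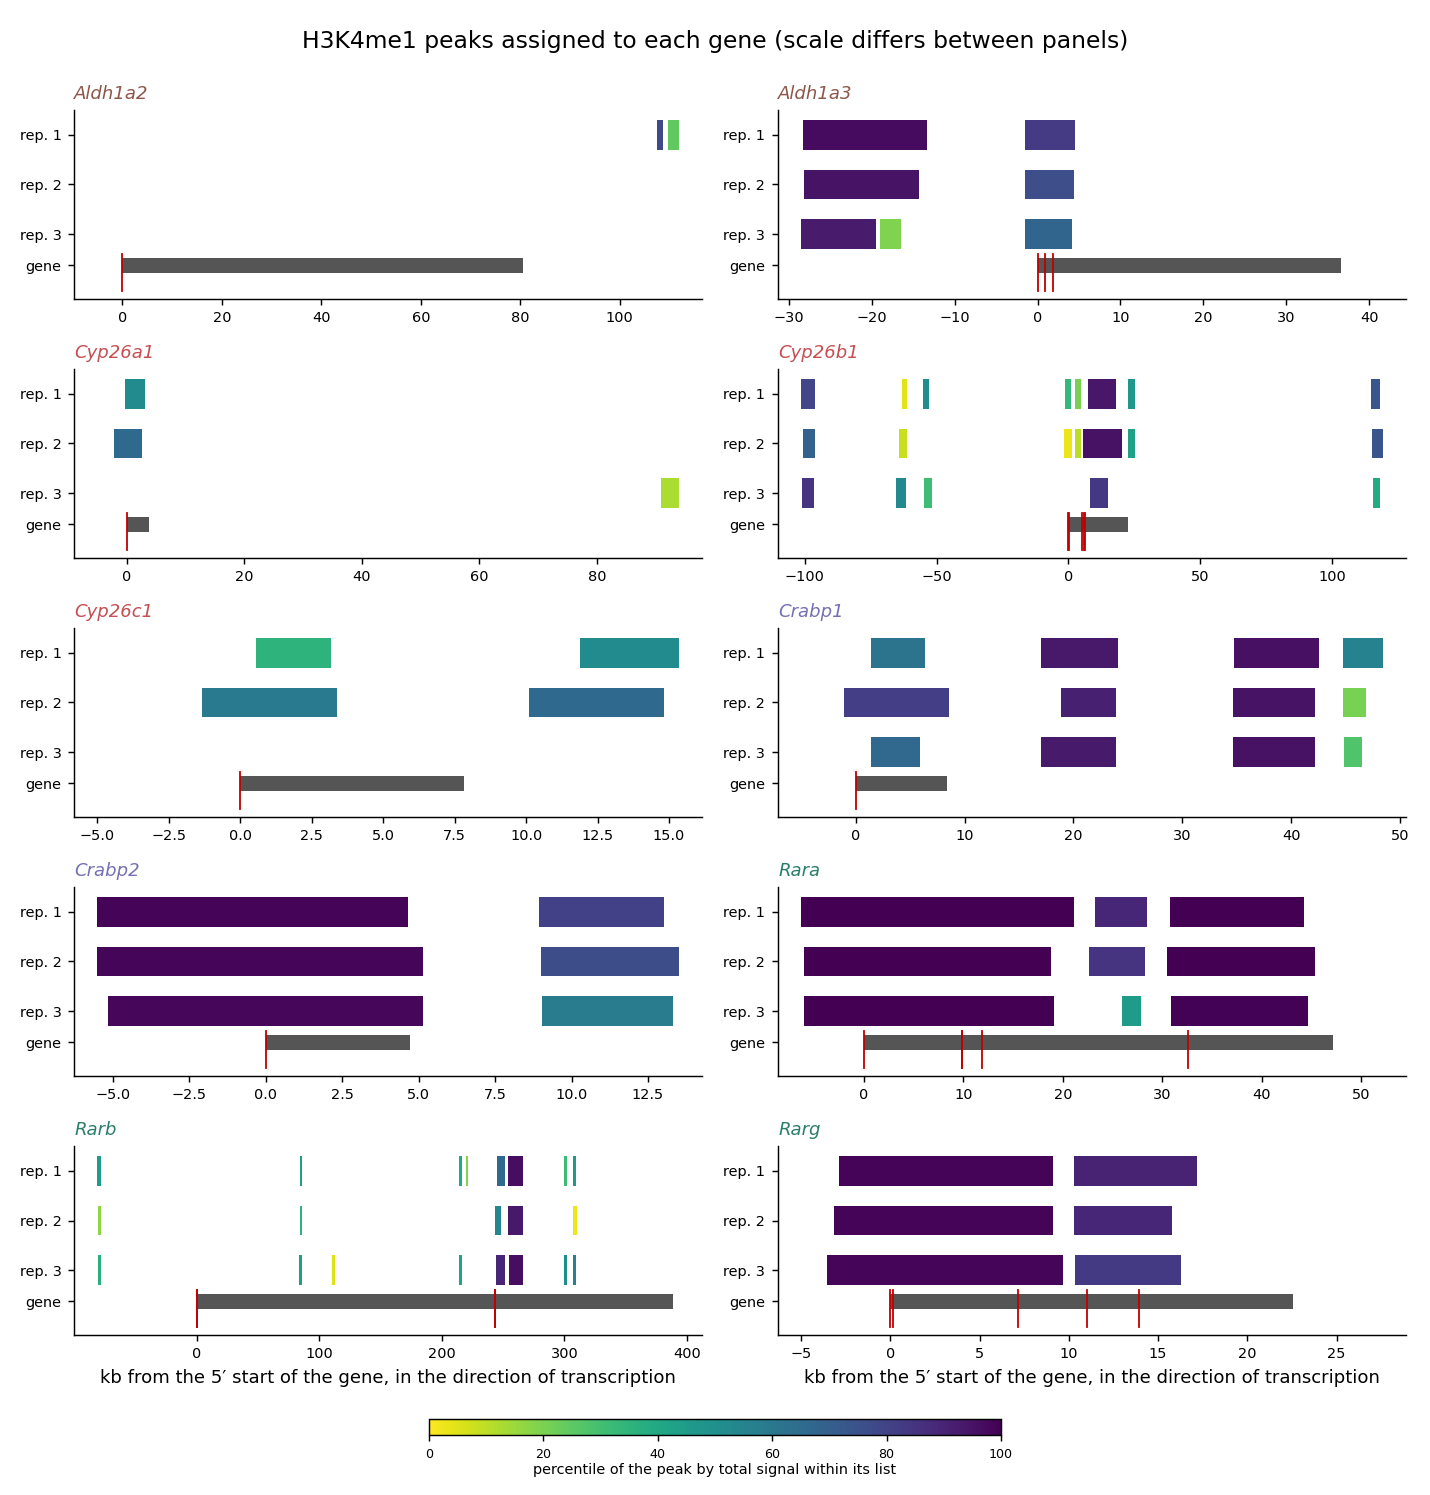
The peaks assigned to each gene, by replicate, along the distance from the 5′ start in kb in the direction of transcription. Boxes are peaks coloured by their percentile of total signal within their list, the grey bar is the gene, and red lines are start sites of protein-coding transcripts. The peaks of *Crabp2*, *Rara* and *Rarg* lie in the same places in all 3 replicates, and those over the bodies of *Cyp26a1* and *Cyp26c1* are absent in replicate 3.

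*Aldh1a2*, the main retinoic acid producing enzyme of early embryos (chr9:71215789-71296243, plus strand), had 0% coverage in each replicate. The peak nearest to its start was 108, 227 and 148 kb away in replicates 1, 2 and 3. In replicate 1 alone, a pair of peaks lay downstream of the gene and had its start site as the nearest. The first, chr9:71323294-71324408, was short and tall. It was longer than only 0.914% of the peaks of that list, yet its maximum signal of 223 was the highest of any peak at the 10 genes in replicate 1. Neither peak had a counterpart in replicates 2 and 3.

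*Aldh1a3*, the synthesis enzyme known from the ectoderm of the eye and nose (chr7:66390890-66427517, minus strand), carried a peak of 6.01, 5.92 and 5.66 kb over all 3 of its start sites. Coverage was 12.9%, 12.7% and 12.1%, a mean of 12.6% ± 0.39 (SD, n = 3), which 9.89% of all genes reached. A larger stretch of the mark lay upstream, at chr7:66440854-66456026, over no other protein-coding gene. It was a single peak of 14.9 kb in replicate 1 and of 13.9 kb in replicate 2, and fell into peaks of 2.57 and 8.98 kb in replicate 3. Peaks were ranked by total signal, the fragment pileup summed over the bases of a peak, and the rank was expressed as a percentile within the list. The upstream stretch stood at percentile 97.1 and 95.0 in replicates 1 and 2, and its parts at 92.7 and 19.3 in replicate 3, and the peak at the start sites at 82.7, 76.5 and 67.7. The strongest upstream peak was above the start-site peak in every replicate.

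*Cyp26b1*, the breakdown enzyme known for clearing retinoic acid from limbs, skin and skeleton (chr6:84571414-84593908, minus strand), had the most regions of the enzymes, 8, of which 4 held a peak in all 3 replicates. Coverage was 55.7%, 69.9% and 21.2%, a mean of 49.0% ± 25.0 (SD, n = 3), and replicate 3 lay far below the others. In replicates 1 and 2 there were 4 peaks over the gene and its flanks, and in replicate 3 only 1. That one, in the region chr6:84573590-84588580, measured 10.4, 15.0 and 6.91 kb, and stood at percentile 93.8, 95.5 and 83.7. The 5′ start was covered in replicates 1 and 2, by peaks at percentile 33.4 and 2.93, and was 8.16 kb from the nearest peak in replicate 3.

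The distal regions of *Cyp26b1* differed among themselves. Upstream, within the neighbouring gene *Exoc6b*, a region 96.1 kb from the 5′ start (chr6:84689983-84695263) was at percentile 78.9, 68.4 and 85.1, and it was the strongest *Cyp26b1* peak of replicate 3. A second region in *Exoc6b*, at chr6:84655065-84659216, was at percentile 4.31, 8.59 and 52.8. Both were highest in replicate 3. Another region there, chr6:84645721-84649064, was at percentile 51.4 in replicate 1 and 31.6 in replicate 3 and had no peak in replicate 2. Downstream, at chr6:84474781-84479110, a region present in all 3 replicates was at percentile 73.6, 73.2 and 39.1 and, as over the gene body, was lowest in replicate 3.

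*Cyp26a1* and *Cyp26c1* are neighbours on chromosome 19 and code for related breakdown enzymes. Their 5 kb flanks overlap, so they shared a peak and are not independent. At *Cyp26a1* (chr19:37697798-37701536, plus strand), a peak of 3.46 kb in replicate 1 and 4.74 kb in replicate 2 covered the start site, at percentile 52.2 and 66.4. Its highest pileup was 214 and 158 bp from the DR5 match shown above. Coverage was 25.2%, 34.5% and 0%, a mean of 19.9% ± 17.9 (SD, n = 3). Another DR5 pair, 1881 bp upstream of the start, lay under the peak in replicate 2 only. In replicate 3 the only *Cyp26a1* peak was 90.9 kb downstream, at percentile 12.9, and held a DR5 pair (chr19:37789468-37789484) and a DR2 pair. At *Cyp26c1* (chr19:37685581-37693398, plus strand), coverage was 20.1%, 41.9% and 0%. Its own peak reached over the start site in replicate 2 and ended 531 bp short of it in replicate 1.

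The loss of these peaks in replicate 3 went along with base composition. Over the 10 genes, 5 regions held a peak in replicates 1 and 2 but not in 3, and their GC content ran from 52.9% to 55.4%. The 5 regions with a peak in replicate 3 but not in 2 had 42.2% to 46.4% GC. Among all merged regions the medians were 52.4% for the 2628 of the first kind and 42.4% for the 4075 of the second. As a group, surface ectoderm markers were also lowest in replicate 3, with a peak at 6, 6 and 3 of 10 in replicates 1, 2 and 3. Their mean coverage was 14.8%, 18.9% and 9.56%. *Krt5*, *Krt18* and *Cdh1* were at 0 in replicate 3, and *Epcam*, *Krt14*, *Esrp1* and *Perp* in every replicate. The rest kept a peak in each replicate, *Grhl3* with a coverage of 41.0%, 52.5% and 39.6%. *Tfap2a*, at 44.6%, 72.4% and 53.2%, and *Trp63*, at 1.89%, 2.88% and 2.73%, were higher in replicate 3 than in replicate 1. Facial mesenchyme markers were at 10 of 10 in each, with 48.2%, 51.6% and 48.2% coverage. The part of GC content and of cell mixture in the result was not tested.

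In regions present in all 3 replicates the same was seen as a gradient. For each region the share of the list's signal in shared regions was compared between replicates 3 and 2. The log2 ratio had a median of 0.85 over the 6 regions of these genes under 45% GC, -0.01 over the 6 of 45 to 50%, -0.47 over the 7 of 50 to 55% and -1.20 over the 3 of 55% and over. In all regions the medians were 0.73, 0.11, -0.55 and -0.99. The ratio of replicate 1 to replicate 2 changed less, with medians between -0.10 and 0.10 in the 4 classes for these genes. The highest ratio was 1.54, in the *Rarb* region next to its internal start, and the lowest was -1.35, in the middle region of *Rara*.

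**Figure D3:**
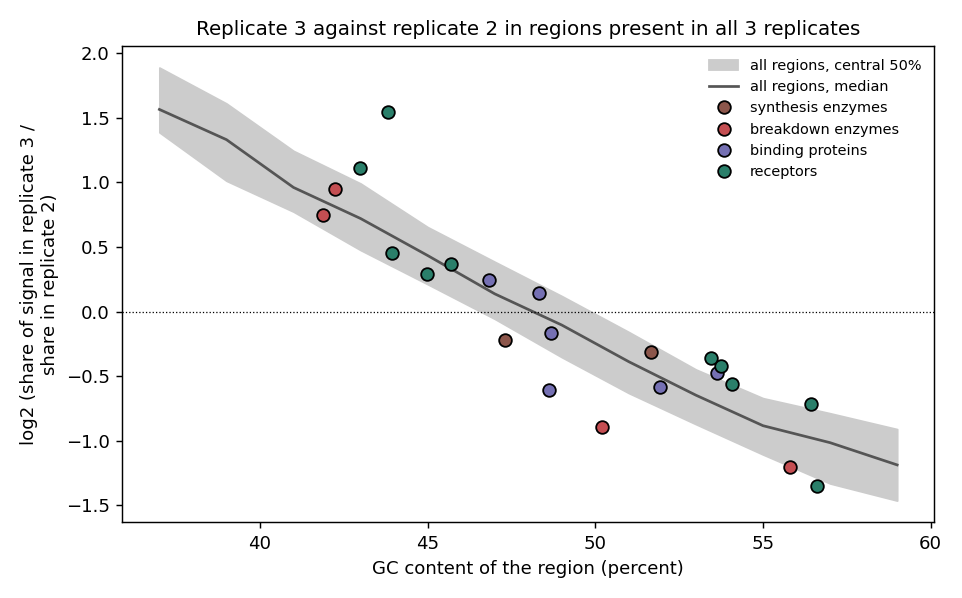
The log2 ratio of each region's share of signal in replicate 3 to that in replicate 2, against the GC content of the region in percent. Points are the 22 regions of the 10 genes with a peak in all 3 replicates, coloured by role, and the line and band are the median and central 50% of all 8916 such regions in 2-point bins of GC. The points fall along the band, from a median of 0.85 under 45% GC to -1.20 at 55% and over.

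*Crabp1*, a cytoplasmic binding protein (chr9:54764748-54773110, plus strand), carried more of the mark beyond its end than over its body. Coverage was 27.5%, 52.5% and 24.9%, a mean of 35.0% ± 15.3 (SD, n = 3), with replicate 2 standing above the others. The peak over the body was at percentile 62.0, 81.7 and 66.5. It covered the start site in replicate 2 and lay 1.36 and 1.37 kb downstream of it in replicates 1 and 3. Downstream, 3 further regions were present in all 3 replicates and had the *Crabp1* start as the nearest. The strongest, chr9:54799393-54807260, began 34.6 kb from the start site and was at percentile 96.1, 95.0 and 95.3. The one before it, chr9:54781759-54788849, was at 93.5, 91.0 and 93.3. The third, chr9:54809503-54813134, was weaker and less even, at 56.2, 20.5 and 27.6. In every replicate the first pair of downstream regions ranked above the peak over the gene.

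*Crabp2*, the binding protein that passes retinoic acid to the receptors (chr3:87948666-87953376, plus strand), lay almost whole under one peak. The peak measured 10.2, 10.6 and 10.3 kb, covered the start site and began upstream of it. Coverage was 70.9%, 73.8% and 73.7%, a mean of 72.8% ± 1.68 (SD, n = 3), which 0.167% of all genes reached, and 0.25% of genes under 20 kb. Its percentile was 98.9, 98.7 and 98.1. The place of the highest pileup, 3.61 kb upstream of the start, was the same in the 3 replicates to within 1 bp. The DR2 match shown above lay 2.48 kb from it. A second peak downstream, chr3:87957602-87962172, was at percentile 81.1, 76.9 and 58.6, and in replicate 3 its nearest start site was that of *Nes*.

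Such a close match of summits was not general among these genes. The highest pileup fell within 100 bp in all 3 replicates in 4 of the 22 regions, or 18.2%, beside 20.6% of all regions, and the median spread was 633 bp beside 530 bp.

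*Rara*, the receptor found in most tissues (chr11:98927818-98974942, plus strand), had the strongest peak of the 10 genes by total signal in every replicate. By maximum signal the strongest peaks of *Rarg* and *Crabp2*, at mean percentiles of 98.5 and 98.0, stood above that of *Rara*, at 97.0. A peak of 27.4, 24.9 and 25.2 kb (region chr11:98921515-98948921) ran from upstream of the 5′ start over 4 of its 5 start sites, and reached into the neighbouring gene *Cdc6*. By total signal it ranked 10 of 16788 peaks in replicate 1, 10 of 12969 in replicate 2 and 11 of 13998 in replicate 3. A second long peak, of 13.5, 14.9 and 13.8 kb, covered the internal start of the transcript Rara-202 and was at percentile 99.7, 99.7 and 99.3. The DR5 match under it lay 396 bp upstream of that start and 4446, 3805 and 2822 bp from the highest pileup. Between the long peaks stood a weaker one, at percentile 89.1, 85.1 and 45.1. Coverage was 78.6%, 77.6% and 69.7%, a mean of 75.3% ± 4.90 (SD, n = 3), and 0.125% of all genes were covered as much.

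*Rarg*, the receptor known from skin and cartilage (chr15:102234938-102257517, minus strand), had its 5 start sites under a pair of peaks in every replicate. The first, of 12, 12.3 and 13.2 kb (region chr15:102247867-102261091), was at percentile 99.2, 98.9 and 98.6, and the second at 90.3, 89.1 and 83.1. Coverage was 58.1%, 54.6% and 58.8%, a mean of 57.2% ± 2.25 (SD, n = 3), which 0.5% of all genes reached. The highest pileup fell within 5.5 bp in the 3 replicates. The DR5 match lay 678, 681 and 676 bp from it, and 479 bp upstream of the start of Rarg-206.

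*Rarb*, the receptor whose own gene answers to retinoic acid (chr14:16430839-16819156, minus strand), had the lowest coverage of the receptors over a body of 388 kb. Coverage was 7.27%, 5.64% and 8.04%, a mean of 6.98% ± 1.23 (SD, n = 3). Among genes of 100 kb and over, 20.8% were covered as much. It still had the most regions of the 10 genes, 9, of which 5 held a peak in all 3 replicates. The 5′ start, that of Rarb-203, was far from the mark, with the nearest peak 77.7, 77.8 and 77.7 kb upstream. Most peaks over the gene lay around and beyond an internal start, that of Rarb-201. Downstream of that start, an intronic peak of 12.2, 12.3 and 12 kb (region chr14:16552530-16564801) was at percentile 96.6, 93.4 and 96.9. Its highest pileup was in the same place to within 57 bp.

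The start of Rarb-201 itself was at the edge of a peak. It was covered in replicate 2, whereas the peak ended 1827 bp short of it in replicate 1 and 444 bp short in replicate 3. The DR5 match, 22 bp downstream of that start, was accordingly under the peak in replicate 2 and 1797 and 414 bp outside it in replicates 1 and 3. This internal promoter with its DR5 is the textbook retinoic acid response element. The peak next to the start was at percentile 66.3, 53.5 and 89.8, highest in replicate 3.

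Across the roles, the question was whether genes that make and destroy retinoic acid carried as much of the mark as those that bind and sense it. The mean coverage of the 5 enzymes was 22.8%, 31.8% and 6.68% in replicates 1, 2 and 3, that of the 2 binding proteins was 49.2%, 63.2% and 49.3%, and that of the 3 receptors was 48.0%, 46.0% and 45.5%. The mean of the 5 enzymes was thus lowest in every replicate. Within the enzymes, the synthesis pair had a mean of 6.29% ± 0.20 (SD, n = 3) and the breakdown enzymes 29.8% ± 21.1. The breakdown enzymes were at 33.6%, 48.8% and 7.08% in replicates 1, 2 and 3. They were above the receptors in replicate 2 and below them in replicates 1 and 3. Enzymes minus receptors was -25.2, -14.1 and -38.8 percentage points, a mean of -26.1 ± 12.4 (SD, n = 3), lower in 3 of 3 replicates. The two-sided exact sign-flip permutation test gave p = 0.25, the smallest that 3 replicates allow, and 0.25 after adjustment over the 3 pairs of roles compared. Enzymes minus binding proteins was -33.5 ± 8.30, lower in 3 of 3 replicates (exact p = 0.25). Binding proteins minus receptors was 1.17, 17.2 and 3.78, a mean of 7.39 ± 8.60, higher in 3 of 3 replicates (exact p = 0.25), with a mean below its SD. The first difference rests on counting each gene once. When the bases of all genes of a role were pooled, so that the long *Rarb* weighed most, it was -4.32, with no common sign in the replicates (exact p = 0.5).

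By regions rather than bases, 6 of 6 regions of the binding proteins and 10 of 14 of the receptors held a peak in all 3 replicates, against 4 of 11 of the breakdown and 2 of 4 of the synthesis enzymes. Beside the 46.3% of all merged regions, the shares of the enzymes, 36.4% and 50%, lay near the background and those of the binding proteins and receptors, 100% and 71.4%, above it. The receptors were uneven, with 3 of 3 regions of *Rara*, 2 of 2 of *Rarg* and 5 of 9 of *Rarb*. The receptors took 0.307%, 0.309% and 0.24% of the total signal of the lists, and the enzymes 0.0893%, 0.0948% and 0.0625%. *Rara* alone took 0.208%, 0.217% and 0.133%.

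**Figure D4:**
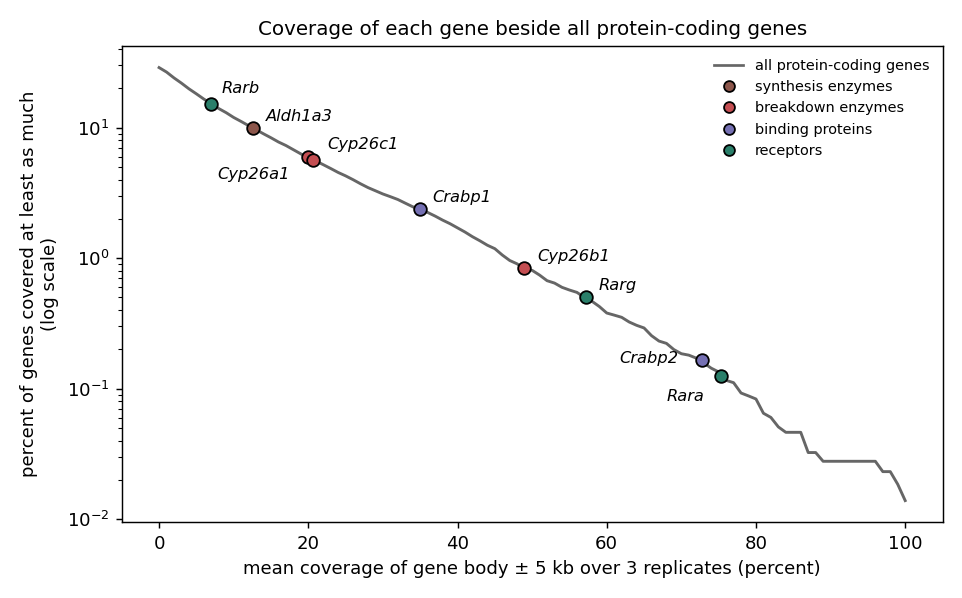
The share of all 21582 protein-coding genes, on a log scale, whose mean coverage was at least the value on the horizontal axis, in percent of the gene body with 5 kb on either side. The line is all genes and the points are the 9 genes with coverage above 0, coloured by role. *Rara*, at 75.3%, lies where 0.125% of genes are covered as much, and *Rarb*, at 6.98%, where 15.2% are.

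A start site was covered by a peak in all 3 replicates for 4 of the 10 genes, *Aldh1a3*, *Crabp2*, *Rara* and *Rarg*, beside 3.42% of all protein-coding genes. For the others it was covered in 2 replicates (*Cyp26a1* and *Cyp26b1*), in 1 (*Cyp26c1*, *Crabp1* and *Rarb*) or in none (*Aldh1a2*). Those covered in 1 replicate were covered in replicate 2 in each case.

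A DR5 pair lay within 1 kb of a start site in 4 of the 10 genes, *Cyp26a1*, *Rara*, *Rarb* and *Rarg*, beside 0.853% of all protein-coding genes, or 184. That was 3 of 3 receptors, 1 of 3 breakdown enzymes and none of the binding proteins and synthesis enzymes. DR2 pairs were found in 0 of the 10 within 1 kb of a start, beside 1.76% of all genes. Pairs with 1 base between them (DR1) were found in 1 of the 10, *Rarg*, beside 1.71%. In the 2 kb at the centre of each region, 0 of the 22 regions in all 3 replicates held a DR5 pair. That allows a share of up to 15.4% by the exact 95% binomial interval, beside 0.998% of all such regions. At that share a count of 0 among 22 says little, and among all 35 regions of these genes 2 held one. Over their whole length 3 of 22 did, or 13.6%, beside 2.74%. The excess was not particular to DR5. By the same count, DR2 pairs were in 3 of 22, beside 5.16%, and DR1 pairs in 2 of 22, or 9.09%, beside 5.83%. These regions were longer, with a median of 7.0 kb against 5.0 kb. A match is a run of letters in the reference genome, and binding was not measured.

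Other genes of the pathway were taken from a list of 19. Of these, 9 carried a peak over the body or flanks in all 3 replicates, beside 15.5% of all protein-coding genes, and 7 in none. Among the genes of vitamin A handling, 3 of 10 carried one in all replicates, which is nearer to that background. The retinol uptake receptor *Stra6* and the reductase *Dhrs3* were among them, and *Stra6* had its strongest peak at percentile 99.7, 99.6 and 99.4. *Rbp4*, *Lrat*, *Aldh1a1*, *Adh7*, *Bco1* and *Fabp5* had none in any replicate. *Aldh1a1*, the third synthesis enzyme, thus resembled *Aldh1a2* in this and not *Aldh1a3*.

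Of the partner receptors, *Rxra* and *Rxrb* carried a peak in all 3 replicates. Coverage of *Rxra* was 64.0%, 62.8% and 43.5%, and that of *Rxrb* 58.0%, 62.6% and 22.8%, so both were lowest in replicate 3. Of the corepressors, *Nrip1* carried a peak in all 3 replicates, with 6.91%, 3.90% and 12.3% coverage, and *Ncor1* had no peak. The coactivators *Ncoa2* and *Ncoa3* carried peaks in all 3, with a mean coverage of 1.65% ± 0.45 and 14.6% ± 4.12 (SD, n = 3).

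Of 10 genes known to respond to retinoic acid in embryos, 5 carried a peak in all 3 replicates, beside 15.5% of all genes and 46.0% of those of 100 kb and over, to which *Meis1* and *Meis2* belong. They were *Cdx1*, *Nr2f1*, *Nr2f2*, *Meis1* and *Meis2*, which code for transcription factors. *Nr2f1* was covered to 70.5%, 69.2% and 56.4%. *Cdx1* had a coverage of only 7.37%, 7.49% and 5.90%, and the peak that overlapped its body or flanks was at percentile 99.8 in each replicate. That percentile is of the whole peak, whereas coverage counts only the part within the body and flanks. The percentile therefore need not describe *Cdx1*, and whether most of the peak lay beyond it, at a neighbouring gene, was not examined. *Hoxb1* and *Stra8*, known for their response in the hindbrain and in germ cells, had no peak in any replicate.

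**Figure D5:**
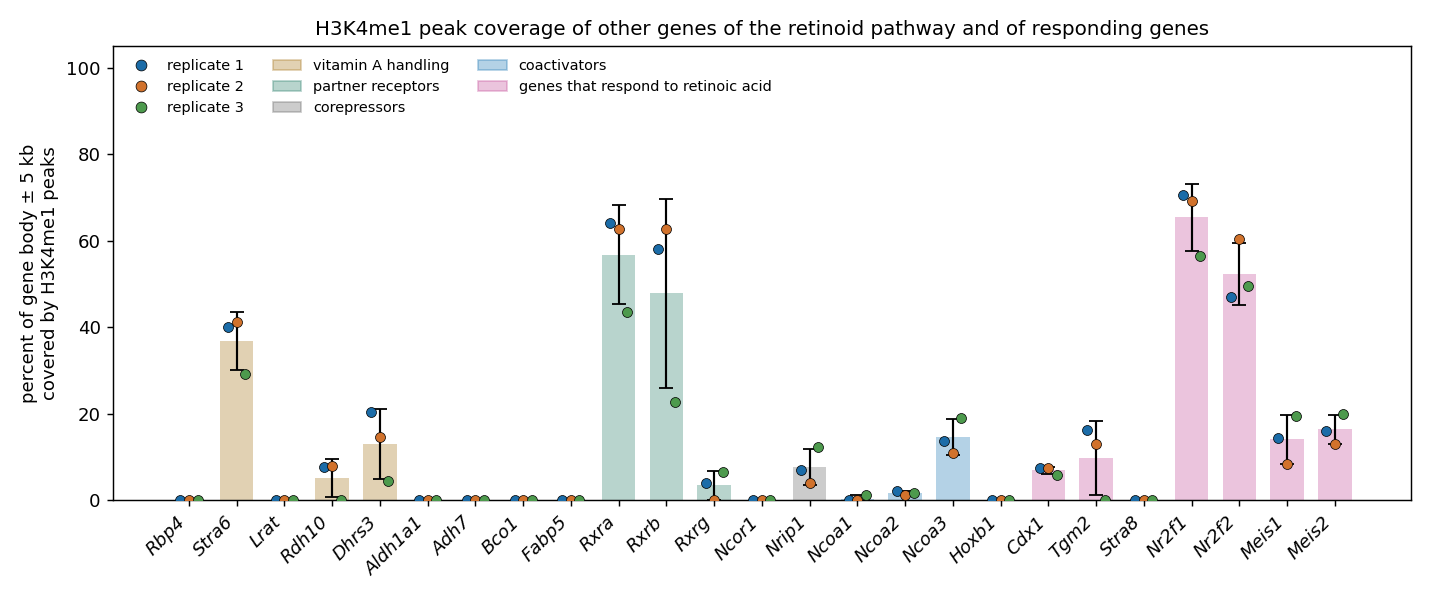
The percent of the gene body with 5 kb on either side that lay within H3K4me1 peaks, for 17 other genes of the retinoid pathway and 8 genes that respond to retinoic acid. Points are replicates, bars means and whiskers 1 SD (n = 3), coloured by list. *Rxra* is the highest of the pathway genes shown, and *Nr2f1*, followed by *Nr2f2*, of the genes that respond. Of the genes shown, 9 are at 0 in every replicate.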

How the data were processed

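Peak lists of 3 H3K4me1 CUT&Tag samples were used. The authors called them per replicate with SEACR 1.3 in stringent mode, without IgG, keeping the top 1% of signal blocks, on mm10. The submitters' processing notes also name Bowtie2 2.3, SAMtools 0.1.19 and bedtools. The treatment of duplicate reads is not given in the sources used here. Each deposited peak has a total signal and a maximum signal, whole numbers not scaled to depth, so ranks, percentiles and shares within a list were compared. The study gives 1 nominal sequencing depth for its samples. A supplementary figure of the study plots sequencing depth, alignment rate, unique fragments and peak reproducibility, and its values were not used here. What each library reached cannot be read from the lists, which held 16788, 12969 and 13998 peaks.

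Gene bodies and start sites came from GENCODE (transcripts with an incomplete 5′ end left out), and sequence from RefSeq GRCm38. Peaks overlapping by at least 1 bp were merged into regions. Python 3.11.15, numpy 2.4.6, pandas 2.3.3 and pysam 0.24.0 were used, and the scripts were tested on simulated peaks. The roles were compared by an exact sign-flip permutation test over replicates. All 10 genes were named, with listed pathway, response and marker genes that had a peak in all replicates or in none (4 of these are counted but not reported by name here), and other markers at 0 were added after their values were seen. Of single peaks, the strongest of each gene, those at start sites and those with a DR5 were to be named, and further peaks were named after their values were seen. The genes and lists were chosen with earlier results of these data known. Alternatives covered flanks, distance limits, overlap, stricter lists, signal measures and leaving out replicates.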

Additional observations from a re-analysis of the deposited data

How the results depend on the processing

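For 21 results, 94 alternatives were computed. By the criteria used, 70 were unchanged (a count within 1.5 times, a value within 1 SD or its binomial interval, or a tested mean of the same sign on the same side of the threshold), 24 moved and 0 were of opposite sign. Only enzymes minus receptors could be labelled as of opposite sign, and as its p could not fall under 0.25, its side of the threshold was fixed. These criteria are wide. Enzymes minus receptors counted as unchanged at -4.32 with bases pooled, against -26.1, and so did the DR5 share at 13.6% over whole regions, against 0, and regions in all 3 replicates at 15 with the stronger 50% of each list, against 22. The count of 7 genes with a peak in all 3 replicates stayed at 7 under every change of flank, list and peak position, and was 7 to 9 when 1 replicate was left out (9 without replicate 3). Breakdown enzymes with a peak numbered 1 to 3, with 3 without replicate 3. Without distal peaks the regions fell to 23, with 14 in all 3 replicates. Mean coverage of the 10 genes, 34.9%, became 47.4% without flanks, 21.7% with flanks of 20 kb and 18.7% with bases pooled. With a distance of up to 2.5 kb allowed, 7 genes had a start site reached in all 3 replicates. The mean percentile of the strongest peaks, 89.8, became 83.7 by maximum signal and 80.7 by signal per base. With the stronger 50% of each list, 5 of the other pathway genes were left. The DR5 share was 40% when counted over genes near start sites in place of regions. Beyond the settings' own construction the cause was not tested. The start-site DR5 count, the leaving out of replicates for roles, start sites and pathway genes, and the keeping of incomplete transcripts were chosen after seeing the data. No paired analysis was possible because no result compares groups of samples that share numbers, and the roles were already compared within replicates. A peak absent from a list fell outside the top 1% of blocks and may still carry the mark, and with 3 replicates no p under 0.25 could be reached.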
